A study of Bos indicus with 8 samples.

Results

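The 26S proteasome subunits were the genes whose array symbol begins with PSMA, PSMB, PSMC or PSMD and a number, leaving out the immunoproteasome subunits PSMB8, PSMB9 and PSMB10. The rule found 36 genes, on 57 probes, of 15229 genes with a symbol on the array. Each gene was represented by its brightest probe. Of the 36 genes, 35 were bright enough to test, among 11444 genes tested in all. They comprised 15 subunits of the 20S core, 7 alpha (PSMA) and 8 beta (PSMB), and 19 genes of the 19S cap, 6 ATPases (PSMC) and 13 non-ATPases (PSMD). The remaining gene, PSMC3IP, matched the rule by its letters only. It encodes a meiotic recombination factor and was placed in neither core nor cap, with a mean log2 ratio of FSH over control of 0.034 ± 0.12 (SD, n = 4 replicates). PSMD13 had no probe under that symbol and was not analysed here.

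The cells were bovine cumulus cells, the layers of somatic cells around the oocyte, labelled Bos indicus. FSH pools came from cumulus-oocyte complexes cultured for 6 h with recombinant human FSH at 0.5 µg/ml, and control pools from complexes cultured without it. Both groups had adenosine at 3 mM, estradiol at 1 µg/ml and 10% fetal bovine serum, so no group lacked adenosine. There were 4 pools in each group, called biological replicates in the labels, from slaughterhouse ovaries with follicles of 3 to 6 mm. The labels give 10 as the number per pool without its unit, and no age of the animals. Pools sharing a number, 1 per group, met on 2 arrays with the dyes exchanged, giving 8 arrays on 2 slides. Slide 1 carried FSH RNA in Cy5 on its 4 arrays and slide 2 carried it in Cy3, so that effects of slide and of dye cannot be told apart.

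The proteasome degrades proteins tagged with ubiquitin. Its 20S core is a stack of rings, with alpha subunits that gate the entry and beta subunits that cut the substrate inside. The 19S cap binds ubiquitin chains and removes them, and its ATPase ring unfolds the substrate and threads it into the core. In cumulus cells FSH is a known driver of the expansion that accompanies oocyte maturation.

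Cumulus identity was checked with 9 markers, of which 7, the FSH receptor FSHR, AMH, INHA, INHBA, CYP19A1, KITLG and NR5A1, were bright enough to test. All 7 mean log2 ratios lay below 0, with a median of -0.15. The summed signal of the 9 markers was 20698 to 34022 in the FSH pools and 41662 to 47138 in the control pools, but INHA and INHBA made up most of it, and the other 7 markers summed to 1394 to 2862 in the FSH pools and 1508 to 2597 in the control pools, which overlapped. Oocyte markers, 11 of 17 tested with 6 means below 0, had 5 of 6 means below 0 among those too dim to test, from -0.30 for DDX4 to -1.10 for DPPA3. Means of the 11 tested ran from -1.17 ± 1.49 for BTG4 to 0.25 ± 0.17 for DAZL, with 5 above 0. BTG4 had log2 signals of 9.35 and 8.02 in control pools 3 and 4 and 6.52 to 6.80 elsewhere. GDF9, a dim marker, averaged -0.43 ± 0.14, with every FSH pool below every control pool. All 17 summed to 1659 to 1724 in the FSH pools and 1679 to 3103 in the control pools, the 2 highest sums being 3103 and 2050 in control pools 3 and 4. Immune markers, 5 of 10 tested with 2 means below 0, summed to 1129 to 1901 in the FSH pools and 1164 to 2205 in the control pools, and CSF1R and TYROBP were above the dimness limit on no array. PTPRC, the brightest immune marker, had log2 signals of 9.09, 8.28, 9.64 and 10.00 in FSH pools 1 to 4. In control pools 1 to 4 PTPRC had 8.86, 8.47, 10.46 and 9.88. Red cell markers, 2 of 6 tested with 1 mean below 0, summed to 408 to 445 in the FSH pools and 409 to 451 in the control pools. Theca, stroma and endothelium markers, 9 of 12 tested with 6 means below 0, summed to 8372 to 14905 in the FSH pools and 8264 to 16493 in the control pools. ACTA2, the brightest of these, had log2 signals of 13.46, 13.60, 12.66 and 12.39 in FSH pools 1 to 4. In control pools 1 to 4 ACTA2 had 13.71, 13.51, 12.56 and 13.67. The part of these markers' cells in the proteasome values was not tested, and in bulk RNA fewer cells of a type and less RNA per cell cannot be told apart.

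Values below are log2 ratios of FSH over control in the authors' normalized table, with the 2 arrays of a replicate averaged, so that n = 4 throughout and errors are SDs over replicates. The test was limma on these 4 values with Benjamini-Hochberg adjustment over all tested genes. Log2 signals by pool came instead from the scanner values after loess, so their differences need not equal the ratios beside them. No gene passed at an adjusted p of 0.05 (0 of 11444, 0%), and the lowest adjusted p of all genes was 0.260. The adjusted p of the 35 proteasome genes ran from 0.295 to 0.999. No direction below was therefore called, and each is a description of 4 replicates. A fit on all 8 arrays with a replicate block took 1 correlation between arrays of the same replicate, 0.493, for all genes. That fit still rested on 4 replicates, and it called 195 genes, with 0 proteasome genes among them. Pools also stood apart irrespective of the group. Over all tested genes, FSH pools 3 and 4 and control pool 3 correlated with each other at r = 0.455 to 0.56 after centring each gene, and each of them correlated negatively with FSH pools 1 and 2 and control pools 1 and 2. Medians of the complex, its core and cap and their classes are given with and without replicates 3 and 4. So are the means of proteasome genes at an unadjusted p under 0.05.

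Across the complex, 26 of the 35 proteasome genes had a mean below 0, a share to be read against 49.4% of all tested genes. The median of the 35 means was -0.16, against 0.0022 for all tested genes. Values below 0 in all 4 replicates were found for 10 proteasome genes, against 9.27% of all tested genes, and values above 0 in all 4 for 1, against 11.7%. At an unadjusted p under 0.05, 8 of the 35 were lower in FSH pools, against 5.69% of all tested genes, and 0 were higher, against 6.02%. The count of 8 was 14 with the replicate block, 4 without replicate 4 and 4 without replicates 3 and 4. With the scanner values centred on each array's median it was 0, and 4 core subunits, PSMA2, PSMA3, PSMA7 and PSMB3, were then higher; over all tested genes that setting gave 71 lower and 1104 higher. The 8 were PSMA6 of the core and PSMC2, PSMD1, PSMD2, PSMD3, PSMD4, PSMD11 and PSMD12 of the cap. Replicates differed in size, with medians over the 35 genes of -0.054, -0.25, -0.027 and -0.33 in replicates 1 to 4. Scaling mattered for these directions. With that median centring, which makes no correction for intensity, 14 of the 35 means lay below 0 and the median was 0.073, against 0.062 for all tested genes. With loess on the scanner values, 26 of the 35 lay below 0, as in the authors' table, with a median of -0.20. Without replicates 3 and 4, 28 of the 35 lay below 0 and the median was -0.17.

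**Figure D1:**
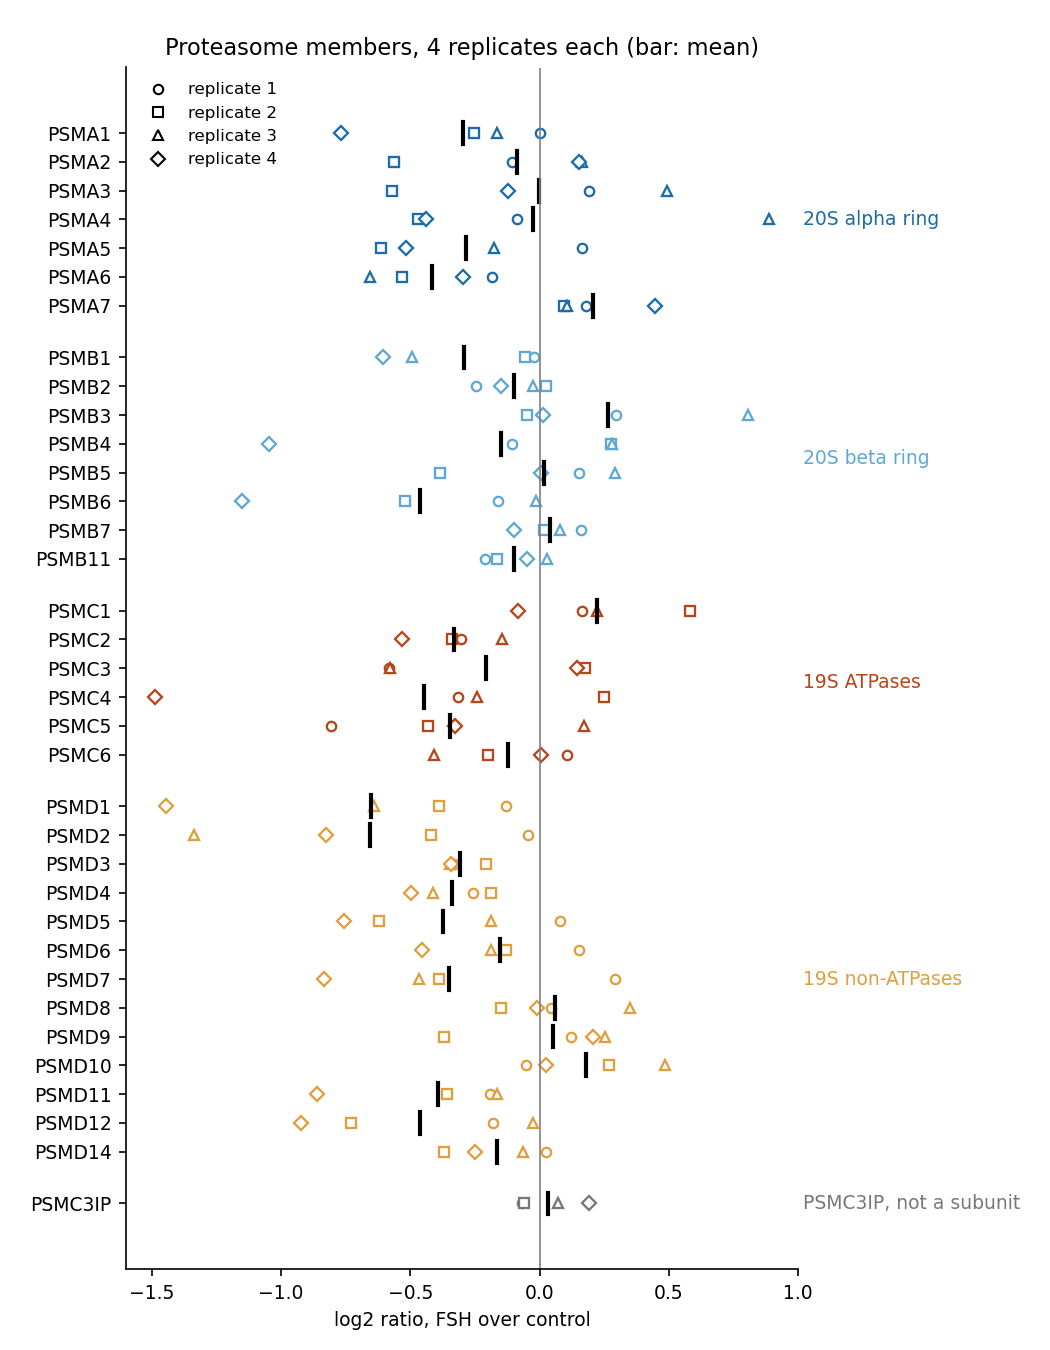
Log2 ratio of FSH over control (x axis) of the 35 tested proteasome genes (y axis), by subunit class, with 1 symbol per replicate and a bar at the mean of 4. Of the 35 means 26 lie below 0 in the authors' table, and 14 when scanner values are centred on the median; PSMA7 has all 4 values above 0, and PSMC4, from 0.25 in replicate 2 to -1.49 in replicate 4, spreads widest.

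The cap median lay further below 0 than the core median. The 15 core subunits had a median of -0.099, with 11 means below 0, 3 below 0 in all 4 replicates and 1 lower at an unadjusted p under 0.05. The 19 cap genes had a median of -0.33, with 15 means below 0, 7 below 0 in all 4 replicates and those same 7 lower at an unadjusted p under 0.05. Core medians by replicate were -0.023, -0.25, 0.078 and -0.15, and cap medians were -0.054, -0.34, -0.19 and -0.45. The core median was above the cap median in every replicate, by 0.030, 0.082, 0.26 and 0.31. Without PSMB11 in the core and the assembly chaperones PSMD5, PSMD9 and PSMD10 in the cap, the order turned in replicate 2. The core median was then -0.32 in that replicate and the cap median -0.27. The difference of the overall medians of the 15 core and 19 cap genes was 0.23, with an SD of 0.14 over the 4 replicate differences. It was given no test because the genes had been chosen with earlier results known. It was 0.076 without replicates 3 and 4, the replicates with the larger differences. Any part of the differences between pools in this was not tested. Averaging all probes of a gene in place of taking the brightest made the core minus cap difference 0.10. The core median was then -0.099 and the cap median -0.20.

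On slide 1 (FSH in Cy5) the core median was -0.11 and the cap median -0.24, and on slide 2 (FSH in Cy3) they were -0.094 and -0.23. The core stood above the cap on 7 of 8 arrays. The exception was replicate 2 on slide 1, with a core median of -0.39 and a cap median of -0.24. Median centring moved the core median to 0.20 and the cap median to -0.016, but the gap between them was 0.22. Core probes were brighter, with a median log2 signal of 11.7 against 9.28 for cap probes, and 12 of 15 core genes but 5 of 19 cap genes fell in the brightest 10% of all tested genes. That 10% as a whole had a median ratio of 0.029. Among the brightest 20% of genes, the 13 core subunits had a median of -0.099 and the 8 cap genes a median of -0.34. Among the remaining 80%, 2 core subunits had a median of -0.063 and 11 cap genes a median of -0.31.

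**Figure D2:**
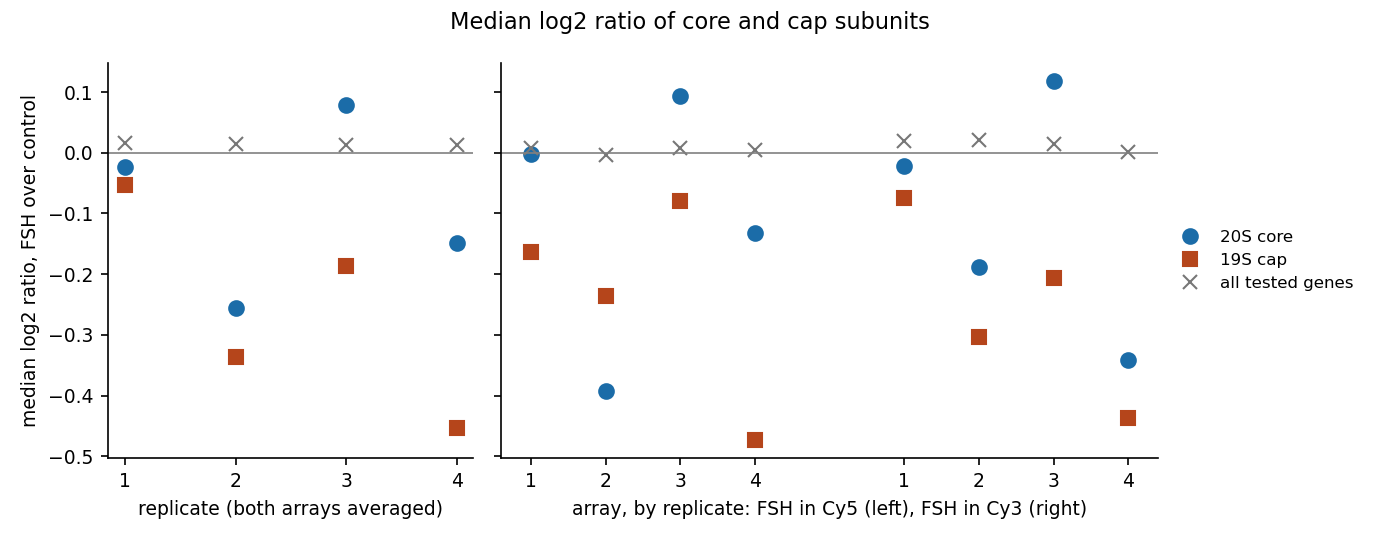
Median log2 ratio of FSH over control (y axis) of 15 core subunits, 19 cap genes and all tested genes, by replicate (left panel) and by array (right panel, slide 1 and then slide 2). The core point lies above the cap point in all 4 replicates and on 7 of 8 arrays, by 0.030 in replicate 1 and 0.31 in replicate 4; with median centring of scanner values the core median lies at 0.20 and the cap median at -0.016.

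The alpha ring of the core had 6 of 7 means below 0 and a median of -0.087. Without replicates 3 and 4 the alpha median was -0.23, against -0.13 for the ATPases and -0.22 for the non-ATPases of the cap. With median centring the ring median was 0.20 and PSMA1 turned to 0.032, against a median of 0.062 for all tested genes. PSMA6, an alpha subunit, had log2 ratios of -0.19, -0.53, -0.66 and -0.30 in replicates 1 to 4. Its log2 signal was 12.95, 12.80, 13.23 and 13.08 in FSH pools 1 to 4 and 13.29, 13.51, 13.79 and 13.53 in control pools 1 to 4. Every FSH pool of PSMA6 lay below every control pool, and the mean ratio was -0.42 ± 0.22 (limma, unadjusted p = 0.00827, adjusted p = 0.295). A second, dimmer probe for PSMA6 had a mean of -0.33 ± 0.11 and was below 0 in all 4 replicates, and without replicates 3 and 4 the mean of the brightest probe was -0.36. With median centring that mean was -0.11 (unadjusted p = 0.549). PSMA1, another alpha subunit, had ratios of 0.0023, -0.25, -0.16 and -0.77, with a mean of -0.30 ± 0.33 (limma, adjusted p = 0.478), or -0.13 without replicates 3 and 4. Its FSH signals of 11.82, 11.81, 11.41 and 11.27 overlapped its control signals of 12.01, 12.04, 11.52 and 11.94, and FSH pools 3 and 4 were the 2 lowest of the 8.

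PSMA7 was the 1 alpha subunit with a mean above 0. It had ratios of 0.18, 0.094, 0.11 and 0.45 and a mean of 0.21 ± 0.16 (limma, adjusted p = 0.484), and it was the 1 proteasome gene above 0 in all 4 replicates. That value depended on the slide, at -0.0024 on slide 1 and 0.42 on slide 2, the widest gap of any member. PSMA2, PSMA3 and PSMA4 scattered on both sides of 0. PSMA4 ranged from -0.47 in replicate 2 to 0.89 in replicate 3, and PSMA3 from -0.57 in replicate 2 to 0.49 in replicate 3. PSMA5 had a mean of -0.29 ± 0.35, with slides at -0.13 and -0.44. PSMA8, a testis-specific alpha subunit, was too dim to test, being above the limit on 3 FSH and 1 control array channels.

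The beta ring had 5 of 8 means below 0 and a median of -0.099, or -0.075 without replicates 3 and 4. With median centring the ring median was 0.14 and PSMB1 turned to 0.073, against a median of 0.062 for all tested genes. The catalytic subunits of the ring had means on both sides of 0. PSMB6, which carries the caspase-like activity, had ratios of -0.16, -0.52, -0.014 and -1.15 and a mean of -0.46 ± 0.51 (limma, adjusted p = 0.430). PSMB5, with the chymotrypsin-like activity, had ratios of 0.15, -0.39, 0.29 and 0.0059 and a mean of 0.016 ± 0.29. PSMB7, with the trypsin-like activity, had ratios of 0.16, 0.018, 0.078 and -0.098 and a mean of 0.040 ± 0.11. Only PSMB6 of these 3 was below 0 in all replicates. A second, dimmer PSMB6 probe had a mean of 0.090 ± 0.42, so the sign rested on the bright probe, whose mean was -0.058 with median centring.

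Signals by pool set the PSMB6 spread out. PSMB6 had log2 signals of 13.05, 12.81, 12.19 and 12.05 in FSH pools 1 to 4 and of 13.25, 13.29, 12.15 and 13.15 in control pools 1 to 4. The noncatalytic beta subunit PSMB4 showed the same split, at 13.35, 13.50, 12.18 and 12.22 in FSH pools and 13.49, 13.48, 12.10 and 13.40 in control pools. Both were low in FSH pools 3 and 4 and in control pool 3, so the groups overlapped. The replicate 4 ratio of PSMB4, -1.05, set a low FSH pool against a high control pool, whereas replicate 3, at 0.28, set 2 low pools against each other. PSMB1, another noncatalytic subunit, had ratios of -0.023, -0.055, -0.49 and -0.60 and a mean of -0.29 ± 0.30 (limma, adjusted p = 0.457), or -0.039 without replicates 3 and 4. PSMB3 had a mean of 0.27 ± 0.39, with 0.81 in replicate 3, and PSMB2 of -0.099 ± 0.12. PSMB11, a thymus-specific beta subunit, was close to the dimness limit, above it on 7 FSH and 6 control array channels, and averaged -0.099 ± 0.11.

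The ATPase ring of the cap had 5 of 6 means below 0 and a median of -0.27. That median was -0.0023 with median centring and -0.13 without replicates 3 and 4. PSMC2, 1 of its ATPases, had ratios of -0.31, -0.34, -0.14 and -0.53 and a mean of -0.33 ± 0.16 (limma, unadjusted p = 0.0143, adjusted p = 0.325). Its signals were 11.51, 11.52, 11.73 and 11.48 in FSH pools and 11.88, 11.85, 11.93 and 11.96 in control pools. All FSH pools lay below all control pools, and without replicates 3 and 4 the mean was -0.32. With median centring it was -0.016 (unadjusted p = 0.934). PSMC5 had ratios of -0.81, -0.43, 0.17 and -0.33 and a mean of -0.35 ± 0.40 (limma, adjusted p = 0.470). That mean was -0.62 without replicates 3 and 4 and -0.0010 with median centring.

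PSMC4 had the largest mean ratio of the ATPases, -0.45 ± 0.74, and the widest spread, with ratios of -0.32, 0.25, -0.24 and -1.49 (limma, adjusted p = 0.557). Its signals were 10.79, 11.16, 9.14 and 9.30 in FSH pools and 11.07, 11.10, 9.38 and 10.77 in control pools. FSH pools 3 and 4 and control pool 3 again stood low, and without replicates 3 and 4 the mean was -0.033. A dimmer PSMC4 probe had a mean of 0.11 ± 0.058. PSMC1 was the 1 ATPase with a mean above 0, 0.22 ± 0.27, with 0.58 in replicate 2. PSMC3 ranged from -0.58 to 0.18 and PSMC6 from -0.41 to 0.10.

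The non-ATPases had 10 of 13 means below 0 and held 6 of the 8 proteasome genes at an unadjusted p under 0.05. Their median was -0.34, or -0.084 with median centring and -0.22 without replicates 3 and 4. PSMD2 and PSMD1 are the large scaffold subunits of the cap base, where ubiquitin receptors and shuttle factors dock. By brightest probe and over all 4 replicates they had the most negative means of all members. With probes averaged their means were -0.42 and -0.35, and PSMD12 was then lowest at -0.46. PSMD2 had ratios of -0.044, -0.42, -1.34 and -0.82 and a mean of -0.66 ± 0.56 (limma, unadjusted p = 0.0179, adjusted p = 0.338). Its signals were 12.78, 12.74, 12.31 and 12.46 in FSH pools and 13.11, 13.24, 13.32 and 13.24 in control pools, with no overlap. It did not follow the pool split on the control side, since control pool 3 was its highest pool. The mean was -0.23 without replicates 3 and 4 and -0.27 with median centring, and 2 dimmer probes averaged -0.46 ± 0.49 and -0.13 ± 0.23. PSMD1 had ratios of -0.13, -0.39, -0.64 and -1.44 and a mean of -0.65 ± 0.57 (limma, unadjusted p = 0.0203, adjusted p = 0.350), which was -0.26 without replicates 3 and 4 and -0.37 with median centring. Its signals of 11.00, 10.75, 9.98 and 9.68 in FSH pools overlapped those of 11.23, 11.20, 10.58 and 11.05 in control pools.

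PSMD4, a ubiquitin receptor, had ratios of -0.26, -0.19, -0.41 and -0.50 and a mean of -0.34 ± 0.14 (limma, unadjusted p = 0.011, adjusted p = 0.307). Its signals of 8.66, 8.58, 8.12 and 8.09 in FSH pools overlapped those of 8.79, 8.70, 8.37 and 8.61 in control pools, where control pool 3 was lowest. The PSMD4 mean was -0.22 without replicates 3 and 4, -0.20 when its probes were averaged and -0.061 with median centring (unadjusted p = 0.781), and its second, dimmer probe averaged -0.058 ± 0.15. PSMD14, the deubiquitinase that cuts ubiquitin from the substrate, had ratios of 0.023, -0.37, -0.065 and -0.25 and a mean of -0.16 ± 0.18 (limma, adjusted p = 0.574), or 0.15 with median centring. Its lid partner PSMD7 had a mean of -0.35 ± 0.47, with slides at -0.51 and -0.19 and a mean of -0.048 without replicates 3 and 4. Of the other lid subunits, PSMD11, PSMD12 and PSMD6 had means of -0.39 ± 0.32, -0.46 ± 0.43 and -0.15 ± 0.25. PSMD11 and PSMD12 were below 0 in every replicate, most in replicate 4 at -0.86 and -0.92. Their means were -0.28 and -0.45 without replicates 3 and 4, and -0.15 and -0.19 with median centring. PSMD8 averaged 0.059 ± 0.21.

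The lid subunit PSMD3 had the tightest ratios, -0.33, -0.21, -0.35 and -0.34, with a mean of -0.31 ± 0.067 (limma, unadjusted p = 0.0105, adjusted p = 0.305). Its probe was dim, above the limit on 6 FSH and 6 control array channels. Signals of 6.59, 6.59, 6.46 and 6.49 in FSH pools and 6.61, 6.69, 6.62 and 6.60 in control pools did not overlap, but all 8 lay within 6.46 to 6.69. The mean was -0.096 with loess on the scanner values and -0.094 with median centring, and it was -0.27 without replicates 3 and 4. PSMD5, PSMD9 and PSMD10 are chaperones that help assemble the cap and leave it afterwards. Their means were -0.37 ± 0.39, 0.054 ± 0.29 and 0.18 ± 0.24, and the cap without them had a median of -0.33, with 14 of 16 means below 0.

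**Figure D3:**
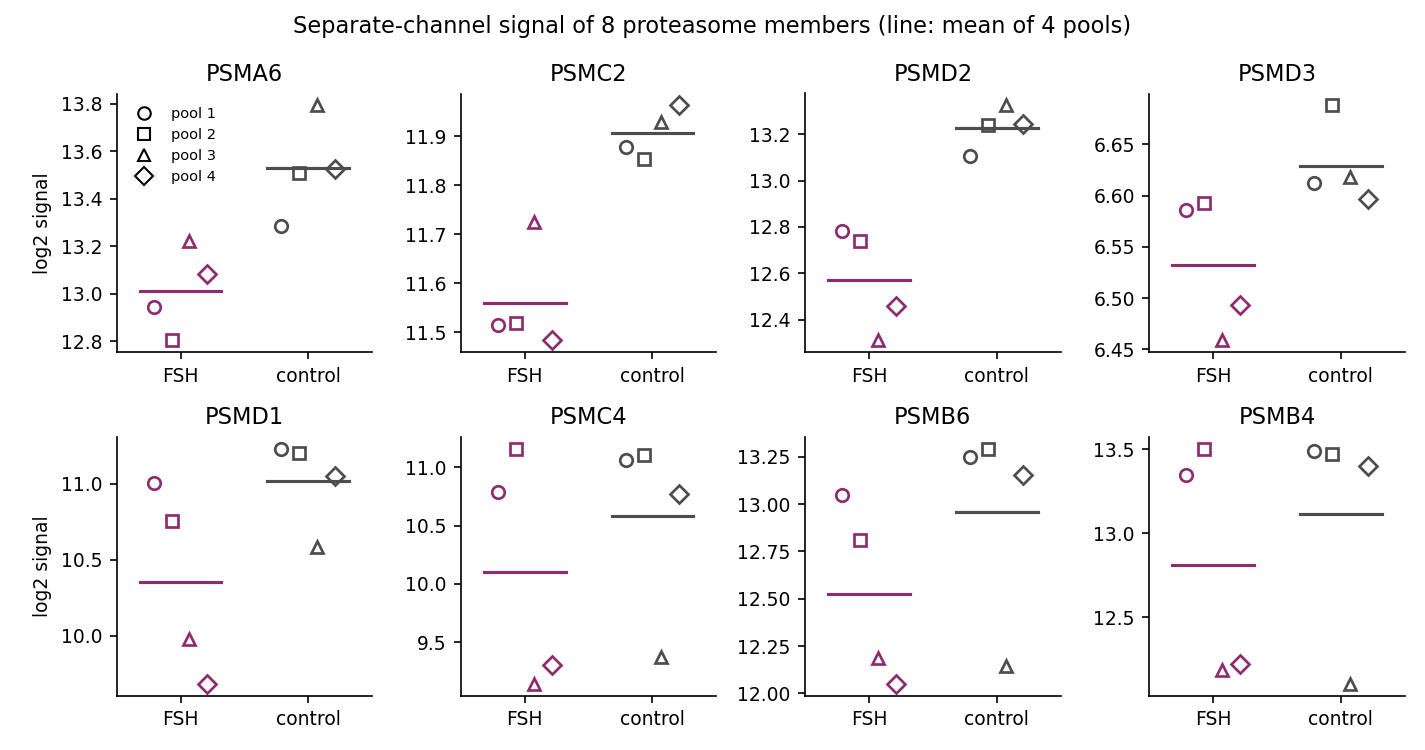
Log2 signal (y axis) of 8 proteasome genes in 4 FSH pools and 4 control pools, with a line at the mean of each group. FSH pools lie below all control pools for PSMA6, PSMC2, PSMD2 and PSMD3 (upper row), whereas PSMD1, PSMC4, PSMB6 and PSMB4 (lower row) are low in FSH pools 3 and 4 and in control pool 3, and their groups overlap.

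FSH pools lay wholly below control pools for 4 of the 35 proteasome genes, PSMA6, PSMC2, PSMD2 and PSMD3, against 2.19% of all tested genes. They lay wholly above for 0, against 2.15%. FSH pools 3 and 4 and control pool 3 stood apart in some members. Signals at least 0.5 lower on the log2 scale both in control pool 3 than in the other control pools and in FSH pools 3 and 4 than in FSH pools 1 and 2 were found for 2 of 15 core subunits and 4 of 19 cap genes, against 6.47% of all tested genes. These were PSMB4 and PSMB6 of the core and PSMC1, PSMC4, PSMD1 and PSMD11 of the cap. Without replicates 3 and 4 the core median was -0.13 and the cap median -0.20.

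**Figure D4:**
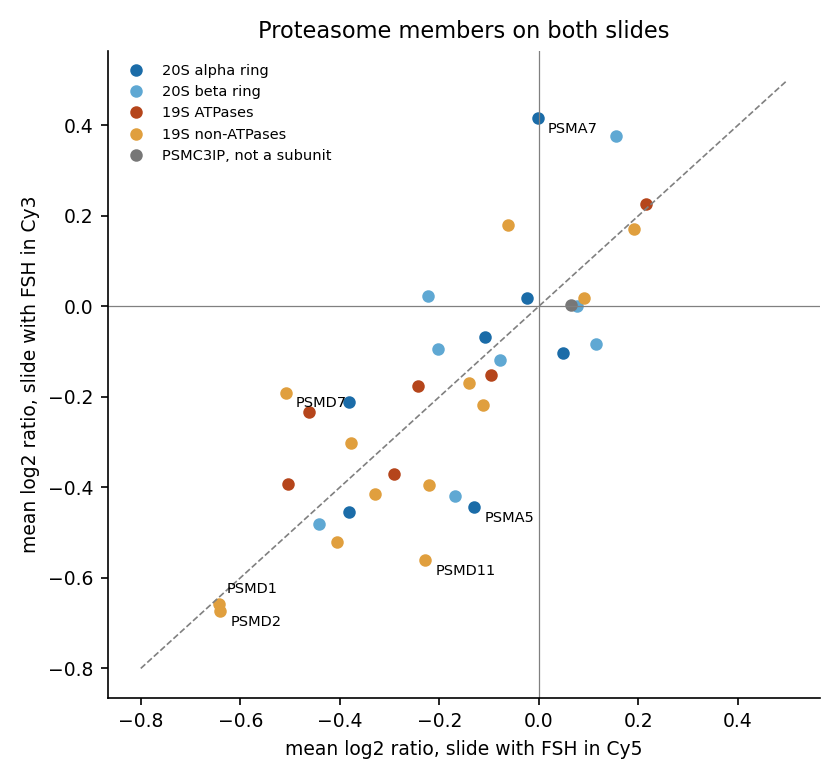
Mean log2 ratio of FSH over control on slide 1 (FSH in Cy5, x axis) and slide 2 (FSH in Cy3, y axis), each a mean of 4 arrays, for 35 proteasome genes, with the diagonal dashed. PSMD1 and PSMD2 lie near -0.65 on both slides, and PSMA7 at -0.0024 and 0.42 lies farthest from the diagonal.

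On slide 1, 27 of the 35 means lay below 0, and on slide 2, 25 did. Gaps above 0.3 between slide means were found for PSMA7 (0.42), PSMA5 (-0.31), PSMD11 (-0.33) and PSMD7 (0.32), slide 2 minus slide 1. Of 12 proteasome genes with several tested probes, 4 had probes of opposite sign, PSMA2, PSMB6, PSMB7 and PSMC4. Genome-wide, arrays of the same replicate on both slides correlated across genes at r = 0.10 to 0.45.

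**Figure D5:**
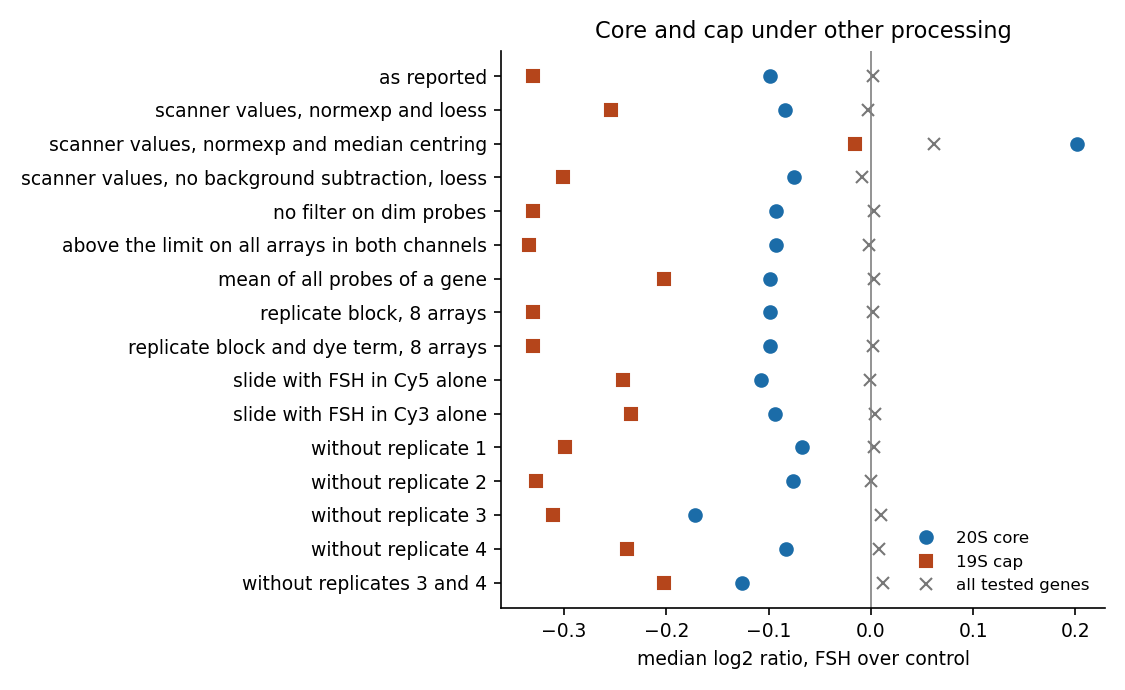
Median log2 ratio of FSH over control (x axis) of 15 core subunits, 19 cap genes and all tested genes under each processing setting (y axis). The cap lies below the core under every setting shown; median centring moves the core to 0.20, the cap to -0.016 and all tested genes to 0.062.

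The immunoproteasome, activators, assembly chaperones and associated genes had medians nearer to 0 than the -0.16 of the proteasome genes. The immunoproteasome subunits PSMB8, PSMB9 and PSMB10, which replace the catalytic beta subunits, had means of 0.068 ± 0.34, -0.067 ± 0.23 and -0.016 ± 0.28. The 5 activators and inhibitors tested had 3 means below 0 and a median of -0.045, led by PAAF1, which binds cap ATPases, at -0.35 ± 0.41, or -0.0075 with median centring. The 5 chaperones of core assembly had 3 below 0 and a median of -0.051, with PSMG1 at -0.53 ± 0.82, or -0.23 with median centring. The 9 associated genes had 6 below 0 and a median of -0.048, with the ubiquitin shuttle RAD23B at -0.22 ± 0.19, or -0.014 with median centring.

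Upstream of the complex, 2 lists held genes lower at an unadjusted p under 0.05, 2 of 6 and 1 of 5 genes, against 5.69% of all tested genes. All 3 lost it with median centring. Of 6 genes that control proteasome transcription, 5 had means below 0 and the median was -0.15. NFE2L2 was the 1 above 0, at 0.37 ± 0.44 (limma, adjusted p = 0.470). NFE2L1 averaged -0.032 ± 0.27 and MAFK -0.047 ± 0.47. MAFG, a small Maf partner of the transcription factor NFE2L1, had ratios of -0.24, -0.27, -0.44 and -0.57 and a mean of -0.38 ± 0.15 (limma, unadjusted p = 0.00728, adjusted p = 0.295), or -0.20 with median centring. NGLY1, which processes NFE2L1, averaged -0.26 ± 0.16 (limma, adjusted p = 0.401), but 0.015 with median centring. MAFF, another small Maf, had the largest mean of the list by size, -0.41 ± 0.58, or -0.18 with median centring. Of 5 genes of ubiquitin, its E1 enzymes and p97, 3 had means below 0 and the median was -0.17. VCP, the p97 unfoldase that prepares ubiquitinated proteins, had ratios of -0.36, -0.017, -0.63 and -0.69 and a mean of -0.43 ± 0.31 (limma, unadjusted p = 0.0176, adjusted p = 0.337). The VCP mean was -0.027 with median centring (unadjusted p = 0.921), -0.16 when its probes were averaged and -0.19 without replicates 3 and 4. No gene of the 6 lists around the complex passed the adjusted threshold.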

How the data were processed

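Arrays with 2 colours of 4 FSH and 4 control pools were read. The deposited series matrix held the authors' log2 ratios, equal after turning to their deposited Cy5 over Cy3 table, and set against scanner values it ran as FSH over control (r = 0.657 to 0.833). The deposited scanner files held intensity per spot on a linear scale, 45220 spots per array, and marks of ignored spots (17 to 57 per array, no member among them), per the file headers. The authors' background and normalization methods are not stated in the labels or headers used here. Column medians were -0.0038 to 0.018. Probe names came from the platform annotation, and all 36 members were found by symbol in the RefSeq table of assembly NIAB-ARS_B.indTharparkar_mat_pri_1.0.

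R 4.3.3, limma 3.58.1 and statmod 1.5.0 were used. A probe was tested when above the mean plus 2 SD of 153 negative control spots on both arrays of at least 3 of 4 replicates in either channel, and 33.8 to 86.3% of probes per array and channel exceeded that limit. The number of pools, 4 per group, limits precision. Signals per pool came from scanner values (normexp, offset 50, loess, Aquantile). The fit took 4 replicate values, 1 probe per gene, with Benjamini-Hochberg adjustment, and was tested on simulated data. Nothing in the labels says the pools came from separate animals, so p-values cover the spread between these pools.

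Members, lists and named genes were chosen with earlier results of these data known. Named genes were, per class, the 2 lowest unadjusted p and the largest mean, with PSMB5, PSMB6, PSMB7, PSMD4 and PSMD14, and in other lists every gene at unadjusted p under 0.05 and the largest mean. Further members and list genes were named after their values were seen. Alternatives were other background and normalization, filters, probe averaging, single slides, the replicate block, and leaving out replicates (replicates 3 and 4 together, chosen after seeing the data).

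Same-numbered pools share arrays, so numbers pair them. Deviations from group means correlated at 0.69, 0.685, 0.586 and 0.0985 for pools 1 to 4. Some pools of unlike number correlated about as well. These were FSH pool 4 with control pool 3 at 0.727, FSH pool 1 with control pool 2 at 0.616 and FSH pool 2 with control pool 1 at 0.564. Others were negative, such as FSH pool 4 with control pool 2 at -0.705.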

Additional observations from a re-analysis of the deposited data

Results flagged for a closer look

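Among 51 groups of 4 replicate values examined, 1 had a replicate farther from the others than Dixon's limit, and chance gives about 1 in 20 such groups. This was PSMD3, with -0.21 in replicate 2 against -0.33, -0.35 and -0.34 in replicates 1, 3 and 4. Its probe was dim, above the limit on 6 FSH and 6 control array channels.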

How the results depend on the processing

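No proteasome gene passed the adjusted threshold under any alternative. Genes called over the whole array were 0 except with the replicate block, without replicate 3 and without replicates 3 and 4. The block called 195 genes, and 117 with a dye term, both with 1 correlation between arrays of the same RNA for all genes. Without replicate 3 the count was 19 (range 0 to 19 over single replicates left out), and without replicates 3 and 4 it was 33. Proteasome genes lower at an unadjusted p under 0.05 numbered 8, and 14 with the replicate block, 13 with block and dye term, 0 with median centring, 4 to 11 with 1 replicate left out (4 without replicate 4) and 4 without replicates 3 and 4. Median centring gave 0.073 for all members, 0.20 for the core and -0.016 for the cap; without replicates 3 and 4 the core minus cap difference was 0.076. Core minus cap was otherwise 0.10 to 0.25. The cause was not tested. Signal over background limited PSMD3 and PSMB11, whose probes were near the dimness limit.

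Signs of some genes turned. Values with median centring are to be read against a median of 0.062 for all tested genes under that setting. Median centring gave NGLY1 0.015, PSMA1 0.032, PSMA2 0.34, PSMA3 0.32, PSMA4 0.20, PSMA5 0.096, PSMB1 0.073, PSMB11 0.038, PSMB2 0.20, PSMB4 0.085, PSMC6 0.15, PSMD14 0.15 and PSMD6 0.064. Loess on scanner values gave PSMA3 0.00070, PSMB11 0.017, PSMB5 -0.084, PSMB8 -0.020 and PSMD9 -0.015, and without background subtraction PSMB11 0.036, PSMB5 -0.075, PSMB8 -0.024 and PSMD9 -0.058. Averaging probes gave PSMA2 0.067. The slide with FSH in Cy5 gave PSMA4 0.050, PSMA7 -0.0024 and PSMD8 -0.062, and that with FSH in Cy3 gave PSMA3 0.020, PSMB2 0.024 and PSMB5 -0.083. Without replicates 3 and 4 the values were PSMB4 0.085, PSMB5 -0.12, PSMC3IP -0.064, PSMD6 0.012, PSMD8 -0.053 and PSMD9 -0.12. With single replicates left out, ranges were -0.17 to 0.071 for PSMA2, -0.17 to 0.19 for PSMA3, -0.33 to 0.12 for PSMA4, -0.29 to 0.15 for PSMB4, -0.076 to 0.15 for PSMB5, -0.00069 to 0.086 for PSMB7, -0.033 to 0.20 for PSMB8, -0.019 to 0.068 for PSMC3IP, -0.038 to 0.13 for PSMD8 and -0.013 to 0.19 for PSMD9.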
